A study of Homo sapiens with 2 samples.

Results

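Metallothionein-high cardiomyocytes are the 10% of the cardiomyocytes in 1 pool of cultured cells whose RNA was richest in 5 metallothionein genes, MT1X, MT2A, MT1E, MT1F and MT1G. They were 1687 of 16869 cardiomyocytes and of 24038 cell barcodes in all. A barcode counted as a cardiomyocyte when it had at least 500 genes, at least 3000 unique molecular identifiers (UMIs, each standing for 1 captured RNA molecule) and at most 25% mitochondrial UMIs, and when 12 cardiac genes, among them TNNT2, TTN and MYBPC3, summed to at least 20000 CPM (UMIs scaled to the usual common total per group or cell). The 1687 cardiomyocytes with the lowest metallothionein level served as the comparison group and are called metallothionein-low. The study made cardiomyocytes from H9, a human embryonic stem cell line, here carrying the fluorescent calcium reporter gCaMP6f, which high and low cells share. Cells frozen at day 15 were thawed into RPMI-B27 medium with insulin, FBS (serum) and the ROCK inhibitor Y-27632. Each sample was marked with an antibody that carries an oligonucleotide barcode (a hashtag), and all were then pooled. The labels do not say what any of the 13 hashtags stands for, and the cells of 1 pool are not replicates, so the values below have no test, and their 95% intervals cover counting error only.

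Metallothioneins are small, cysteine-rich proteins that bind zinc, copper and cadmium in the cell. The transcription factor MTF1 senses free zinc and switches their genes on through short DNA motifs called metal response elements, and it acts in the same way on SLC30A1, the gene of the zinc exporter ZnT1. Glucocorticoids, hypoxia and oxidants can also raise metallothionein RNA. In heart muscle, metallothioneins are known for buffering zinc and protecting against oxidative injury.

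All the rule genes lie in 1 cluster on chromosome 16 (GRCh38, GENCODE 29): MT2A at chr16:56608199-56609497, MT1E at chr16:56625475-56627112, MT1F at chr16:56657694-56660698 and MT1X at chr16:56682424-56684196, all on the plus strand, and MT1G at chr16:56666731-56668065 on the minus strand. Between and beside them lie MT1M, MT1A, MT1B, MT1H, MT3 and MT4. The promoter sequences of MT2A and MT1X, which gave most of the signal with MT1E, and of SLC30A1, the zinc exporter gene discussed below, are shown because they carry the motif through which zinc acts. Each run is the 250 bases before the RefSeq start (GRCh38.p14), 5′ to 3′ in the gene's direction. RefSeq and GENCODE starts differ: the MT2A window lies inside the GENCODE gene, and the MT1X window runs into it. The SLC30A1 window lies wholly before the GENCODE start at chr1:211578742, and the bases between them were not searched. Capitals mark the core of the metal response element, TGCACNC or TGCGCNC, on either strand.
MT2A (chr16:56608334-56608583, plus strand): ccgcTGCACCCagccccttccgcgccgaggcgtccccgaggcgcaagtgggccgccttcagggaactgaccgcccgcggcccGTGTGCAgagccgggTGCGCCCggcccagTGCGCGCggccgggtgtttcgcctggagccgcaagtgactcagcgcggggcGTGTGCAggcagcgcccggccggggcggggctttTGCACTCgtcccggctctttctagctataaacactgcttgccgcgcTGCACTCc
MT1X (chr16:56682220-56682469, plus strand): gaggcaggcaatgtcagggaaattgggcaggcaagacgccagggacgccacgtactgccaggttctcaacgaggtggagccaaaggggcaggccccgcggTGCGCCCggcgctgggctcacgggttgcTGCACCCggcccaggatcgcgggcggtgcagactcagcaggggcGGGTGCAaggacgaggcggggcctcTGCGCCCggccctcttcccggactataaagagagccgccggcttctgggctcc
SLC30A1 (chr1:211579162-211579411, minus strand): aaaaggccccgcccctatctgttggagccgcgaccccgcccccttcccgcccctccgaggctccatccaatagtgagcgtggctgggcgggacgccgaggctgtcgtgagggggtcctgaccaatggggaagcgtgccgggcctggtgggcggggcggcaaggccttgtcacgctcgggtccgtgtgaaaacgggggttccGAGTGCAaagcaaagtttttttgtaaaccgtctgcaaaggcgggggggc
There were 7 matches before MT2A, 4 before MT1X and 1 before SLC30A1. Of 35116 RefSeq promoter windows of this length, 24.8% held at least 1 match, 0.37% held at least 4 and 0.0313% held at least 7. By this count the SLC30A1 window is like many others, and the MT2A and MT1X windows are among few. A match is a stretch of letters and was not tested for binding. The window of the zinc exporter gene SLC30A2 held 3 matches, and both windows of the zinc importer gene SLC39A10 held 0. The windows of MT1H and MT1B held 8 and 3 matches, and these genes had only 29 and 17 UMIs in the high cells.

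The metallothionein level ran over a wide range among the cardiomyocytes. The 5 genes summed to 8704 CPM over the high cells, 321.9 CPM over the 13495 cells between the groups and 0 in the low cells, all of which had no UMI of the 5 genes. These values chose the cells and are a description. Single high cells ran from 2427 to 67650 CPM, with a median of 6670 CPM, while the median of all cardiomyocytes was 134.9 CPM. The 10 cells just inside the threshold had 2427 to 2440 CPM and the 10 just outside 2399 to 2425 CPM, so the rule cuts a continuous tail at a point with no gap. At the bottom, 4073 cardiomyocytes (24.1%) had 0 UMIs of the 5 genes, and the low group was drawn from them at random. The high cells held 80.5% of the cardiomyocytes' metallothionein UMIs (282935 of 351559) and 12.3% of all their UMIs. In the cell with the highest share, 6.77% of all UMIs came from the 5 genes. Cells outside the cardiomyocyte rule were not poor in metallothionein: the 4754 other barcodes that passed the filters summed to 2084 CPM.

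**Figure D1:**
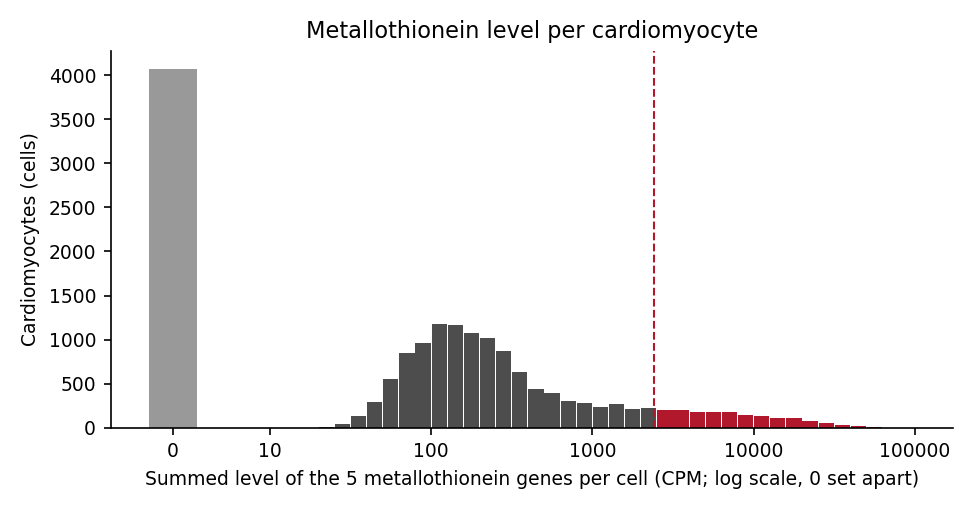
Number of cardiomyocytes (vertical axis) by the summed level of the 5 metallothionein genes per cell in CPM (horizontal axis, log scale, with the 4073 cells at 0 set apart in light grey). Red bars lie right of the dashed line at 2427 CPM, the lowest level among the 1687 high cells, and continue the right tail of the dark grey bars without a gap.

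MT1X, MT2A and MT1E were high together. MT2A reached 3173 CPM in high cells against 95.5 CPM in the cells between the groups, MT1X 2967 against 118.1 CPM and MT1E 2282 against 99.4 CPM. All of these 3 genes were detected in 1632 of the 1687 high cells. MT2A gave 36.5%, MT1X 34.1% and MT1E 26.2% of the high cells' UMIs of the 5 genes, with no correction for transcript length. MT1G behaved unlike them. It summed to 192.4 CPM in high cells against 2.19 CPM between the groups, yet only 14.5% of high cells had a UMI of it, against 1.92% of the cells between the groups. MT1F stood at 89.4 against 6.74 CPM and was detected in 55.6% of high cells and 8.29% of the others. The median depth was 15680 UMIs per high cell and 13470 per cell between the groups. The coding sequences of these genes are close copies of each other, and reads that fit several of them could have been given to the wrong one, so the split among them is less certain than the sum.

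To read a metallothionein that had not chosen the cells, the high and low cells were chosen again by 4 of the 5 genes and the remaining gene was read. MT1X then stood at 2889 CPM in high and 34.9 CPM in low cells, a ratio of 82.8 (76.7 to 89.4). The ratio was 106.2 (97.7 to 115.7) for MT2A and 59.1 (54.9 to 63.6) for MT1E. It was 49.9 (35.5 to 72.7) for MT1F and 174.1 (112.6 to 285.3) for MT1G. Between 92.3% and 99.4% of the high cells stayed the same in these 5 choices. Each cell's metallothionein UMIs were also split at random into 2 parts, and the level of a part was multiplied by 2 to match the whole. On this scale, cells chosen by 1 part had 8624 CPM in the other part if high and 98.99 CPM if low. The low cells thus had 0 in the part that chose them and a low level, not 0, in the part that did not.

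MT1M, a metallothionein that played no part in the choice, followed the others. It stood at 37.9 CPM in high cells (1221 UMIs) and 0.324 CPM in low cells (6 UMIs), a ratio of 117.0 (53.6 to 319.3). With cells chosen inside each of the 13 hashtags, the high cells had UMIs of MT1M in all 13 and the low cells had 0 in all 13. The counts were small and uneven, from 1 UMI in the high cells of hashtag 7 to 133 in those of hashtag 9. The interval of the ratio lay above 1 in 5 of the 13 hashtags. MT1M was detected in 11.1% of high cells and 0.786% of the cells between the groups. MT3, the form known best from the brain, did not follow, at 17.04 against 15.1 CPM (ratio 1.13, 0.974 to 1.31), and its ratio was 0.689 when cells were chosen within each hashtag. MT1A, MT1B, MT1H and MT1HL1 had 31 UMIs or fewer in the high cells, and MT4 had 0.

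Cardiac markers were at similar levels in both groups. The 12 cardiac marker genes summed to 40160 CPM in high and 44730 CPM in low cells, although this sum was also part of the rule, and 0 of the 12 passed a ratio of 1.5. High cells were deeper, with a median of 15680 UMIs and 3953 genes against 10100 UMIs and 3085 genes in low cells. Their median mitochondrial share was 2.50% against 2.85%. The doublet caller Scrublet marked 9.72% of high and 4.86% of low cells. No single hashtag could be given to 59.7% of high and 45.6% of low cells. Among marker lists of other cell types, the 9 hepatic endoderm genes summed to 149.9 CPM in high and 66.6 CPM in low cells, and 3 of the 4 measured were higher: TTR (ratio 23.9), SERPINA1 (7.71) and AFP (3.62), genes of liver-type secreted proteins. In the high group 13 cells held 63.5% of these UMIs. Without the cells that had 10 or more of them, the sums were 55.7 and 65.6 CPM, 0 of these genes passed, and SLC30A1 had a ratio of 5.22; 79 of all genes (0.932%) were then higher and 243 (2.87%) lower. The 8 epithelial genes summed to 1179 CPM in high and 989.3 CPM in low cells. Among them WFDC2 was higher (17.01 against 5.89 CPM, ratio 2.89), and CLDN4, below the level needed for a call, stood at 5.40 against 0.432 CPM. The 8 stromal genes summed to 66.8 CPM in high and 61.2 CPM in low cells, with LUM at 5.31 against 0.378 CPM. Sums were 60.5 and 75.4 CPM for the 7 endothelial genes, whose defining members CDH5 and PECAM1 were at 0.0621 CPM or less, 15.2 and 17.7 CPM for the epicardial genes, 78.2 and 88.9 CPM for the neural genes, and 19.8 and 12.4 CPM for the pluripotency genes. The endothelial list held 1 lower gene, KDR (0.618). What part these other cells and depth play in the results below was not tested beyond the values given with and without them.

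For the comparison of all other genes, UMIs were summed over each group with the 5 rule genes left out. A gene was measured if its higher group had at least 10 CPM and 10 UMIs, and it was called at a ratio of 1.5 or more in either direction. Of 8479 measured genes, 85 (1.0%) were higher and 235 (2.77%) lower in high cells, and the median ratio was 0.971. TMM scaling, which centres the ratios differently, gave 132 (1.56%) higher and 160 (1.89%) lower. Depth and hashtag moved these counts. With high and low cells chosen within each hashtag, 54 genes (0.635%) were higher and 116 (1.36%) lower. Chosen within each of 10 depth classes, 46 (0.545%) were higher and 124 (1.47%) lower. Chosen within each hashtag and each of 3 depth classes together, 49 (0.578%) were higher and 73 (0.861%) lower. The same 29 higher and 59 lower genes passed both there and in the whole pool. The choices within hashtags used only the 8078 of 16869 cardiomyocytes that were given to 1 hashtag. Chosen among these 8078 without regard to hashtag, 59 of the 85 higher and 161 of the 235 lower genes passed again. Within hashtags 36 and 87 did. What part the left-out cells play in the smaller counts was not tested.

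Among genes of zinc transporters, 2 exporter genes were higher and 2 importer genes lower in high cells. SLC30A1, which encodes ZnT1, the exporter of the cell surface, stood at 97.4 CPM in high and 18.7 CPM in low cells, a ratio of 5.20 (4.65 to 5.82). Over 34 other choices of cells, scaling or weighting its ratio lay between 3.65 and 6.66. SLC30A2, which encodes the vesicle zinc transporter ZnT2, stood at 24.8 against 3.78 CPM, a ratio of 6.55 (5.13 to 8.49). SLC39A10, which encodes the importer ZIP10, stood at 27.7 against 56.2 CPM, a ratio of 0.493 (0.450 to 0.540). It did not reach the threshold within hashtags (0.653) or within hashtag and depth (0.698). SLC39A8, the gene of the importer ZIP8, was near its threshold at 10.5 against 15.9 CPM (ratio 0.659, and 0.763 within hashtags). Of the 25 genes of zinc transporters and MTF1, 13 were measured, 2 were higher and 2 lower, with a median ratio of 0.988 beside 0.971 over all genes. The other transporters stayed near 1: SLC30A3 at 1.06, SLC39A6 at 1.09 and SLC39A7 at 0.862. MTF1 itself had 4.35 against 4.10 CPM, a ratio of 1.06 (0.795 to 1.42), and was below the level for a call.

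The exporters were graded with the metallothionein level. Over 10 equal groups of cardiomyocytes from the lowest to the highest metallothionein level, SLC30A1 stood at 18.6, 19.4, 20.4, 19.7, 20.9, 23.3, 25.5, 33.9, 48.4 and 97.4 CPM. The first and second groups hold only cells at 0, so their order is random. SLC30A1 was thus nearly level over the lower 5 groups and higher in each of the groups above them. Within the high cells, split into 5 equal groups, it went on from 66.4 through 74.2, 94.1 and 117.0 to 163.3 CPM. SLC30A2 went from 12.1 to 64.6 CPM and MT1M from 3.76 to 163.5 CPM over the same 5 groups. SLC39A10 declined over the 10 groups from 56.2 to 27.7 CPM and within the high cells ran from 26.6 through 30.2, 30.5 and 28.6 to 20.8 CPM.

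**Figure D2:**
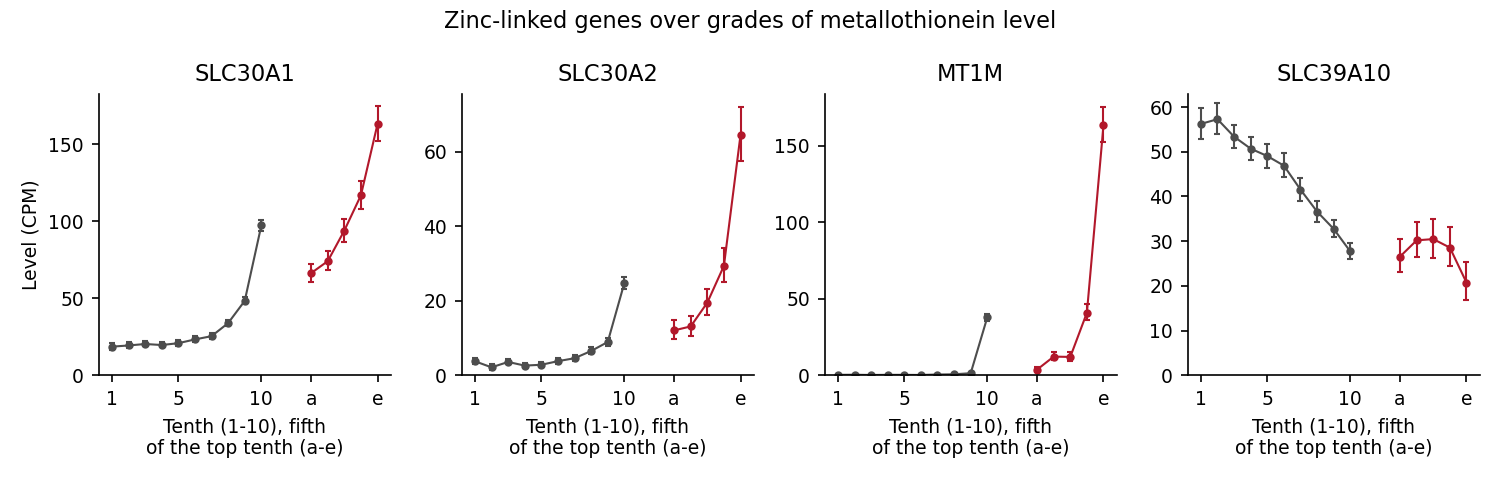
Level in CPM (vertical axes, each from 0) of SLC30A1, SLC30A2, MT1M and SLC39A10 in 10 equal groups of cardiomyocytes by metallothionein level (grey, 1 lowest) and in 5 equal groups within the highest (red, a lowest to e highest). Bars are exact 95% intervals for counting error, and SLC30A1 climbs from 18.6 to 97.4 CPM and then to 163.3 CPM.

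Within single hashtags the same genes differed in the same way. Here the high cells are each hashtag's own top 10%, so they differ from the high cells of the whole pool. Their lowest metallothionein level ran from 318.4 CPM in hashtag 7 to 12600 CPM in hashtag 9. It lay under the pool's 2427 CPM in hashtags 1, 4, 5, 7, 12, 14 and 15. This holds wherever a gene is counted over the 13 hashtags. Such counts give the direction only, and hashtag 1 had only 13 cells per side. With high and low cells chosen inside each of the 13 hashtags, SLC30A1 ranged in the high cells from 43.0 through a median of 70.4 to 222.1 CPM. In the low cells it ranged from 7.49 through 18.3 to 45.5 CPM. It was higher in 13 of 13 hashtags, with ratios from 2.41 to 26.7 (median 3.45), although the lowest high value and the highest low value, which come from different hashtags, overlap. SLC30A2 was also higher in 13 of 13, with medians of 19.9 and 2.88 CPM. SLC39A10 was lower in 12 of 13, at 17.2 to 49.3 CPM (median 37.4) in high and 36.4 to 81.9 CPM (median 52.8) in low cells. The interval of the ratio lay below 1 in 7 hashtags for SLC39A10. It lay above 1 in 12 for SLC30A1 and in 10 for SLC30A2.

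**Figure D3:**
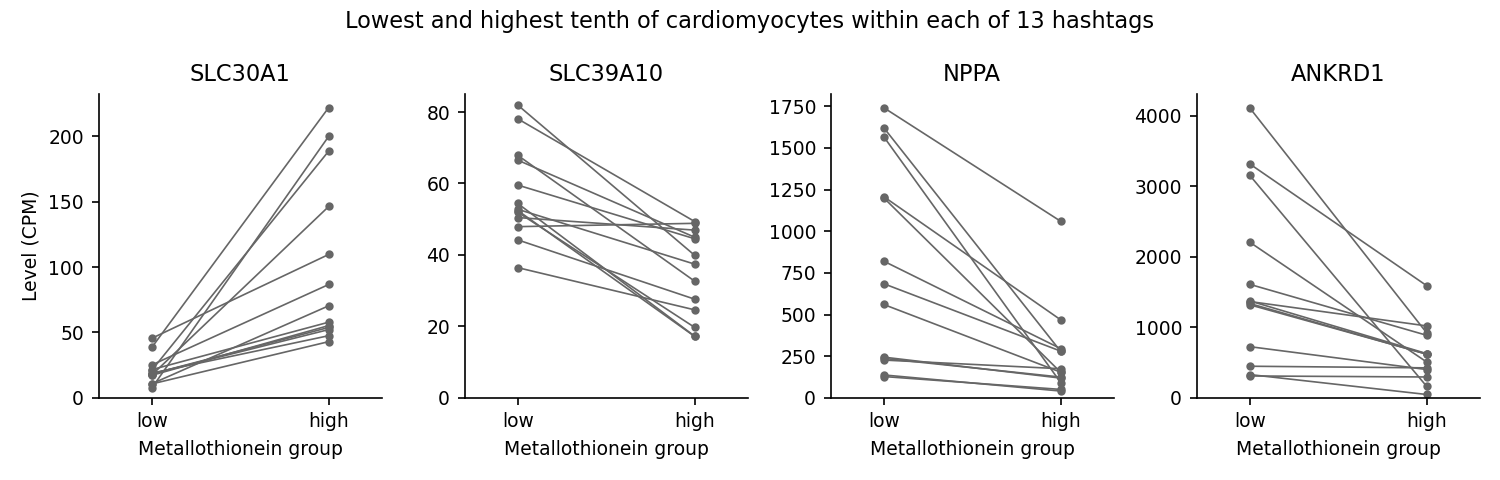
Level in CPM (vertical axes, each from 0) in the lowest and highest 10% of cardiomyocytes by metallothionein level within each of 13 hashtags, 1 line per hashtag. SLC30A1 rises in 13 of 13, SLC39A10 falls in 12 of 13, and NPPA and ANKRD1 fall in 13 of 13.

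Counts for genes of other metals and of oxidant defence stand beside 1.0% higher and 2.77% lower over all genes. In the copper handling list 0 of 10 measured genes passed in either direction (median ratio 1.03). Of 10 measured iron genes HAMP, which encodes the iron hormone hepcidin, was higher at 67.2 against 34.1 CPM (ratio 1.97; 1.35 within hashtag and depth). SLC40A1, the gene of the iron exporter ferroportin, was lower at 8.32 against 16.6 CPM (ratio 0.5001; 0.687 within hashtag and depth). The ferritin genes FTH1 (ratio 1.05) and FTL (1.10) did not pass. Among 9 measured genes of the NRF2 response, the main transcriptional answer to oxidants, 0 were higher and 1 lower: PRDX1, a peroxiredoxin, at 769 against 1325 CPM (ratio 0.580; 0.686 within hashtag and depth). NQO1 had a ratio of 1.08 (0.885 to 1.33). HMOX1, the gene of heme oxygenase, was near the detection limit at 1.46 against 0.540 CPM (47 and 10 UMIs, ratio 2.70, 1.35 to 5.996), too low for a call. Of 17 measured genes of peroxide and superoxide defence 0 passed, with a median ratio of 1.06. SOD1 had a ratio of 1.06 and GLRX, a glutaredoxin gene, 1.47.

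Genes that answer other known inducers of metallothionein were read next. Of 8 measured glucocorticoid response genes 0 were higher. TSC22D3 (GILZ) stood at 51.6 against 46.7 CPM (ratio 1.11) and FKBP5 at 39.7 against 36.0 CPM (ratio 1.10), and DUSP1 was lower (0.658; 0.675 within depth classes). In the hypoxia list 3 of 19 measured genes were higher and 0 lower, with a median ratio of 1.09. These were ANKRD37 (116.8 against 65.8 CPM, ratio 1.77), EGLN1, the gene of an oxygen-sensing prolyl hydroxylase (114.1 against 65.2 CPM, ratio 1.75), and PFKFB4, a regulator of glycolysis (ratio 1.53). Chosen within depth classes, all 3 passed (1.86 for ANKRD37, 1.82 for EGLN1 and 1.69 for PFKFB4). Chosen within hashtags, EGLN1 alone passed (1.55), with ANKRD37 at 1.45, and within hashtag and depth ANKRD37 (1.71) and EGLN1 (1.52) did. EGLN1 was higher in 12 and ANKRD37 in 10 of 13 hashtags, with the interval above 1 in 8 and 9. For ANKRD37 it lay below 1 in 1 hashtag. The widely used hypoxia genes VEGFA (ratio 0.916) and BNIP3 (0.974) did not pass, and PDK1 had a ratio of 0.823. In the glycolysis list 0 of 20 passed (median ratio 1.02), with SLC2A1, the gene of a glucose transporter, at 1.40. SLC2A1 did pass within depth classes (1.53) and after thinning each cell to 3000 UMIs (1.78), but not within hashtags (1.16). Heat shock genes had 0 of 16 higher and 2 lower, HSPA1A (0.664) and CRYAB (0.666). HSPA1A had ratios of 0.836 within hashtags, 0.639 within depth classes and 0.880 with both, and CRYAB 0.637, 0.692 and 0.701. Immediate early genes had 0 of 14 higher and 3 lower, NR4A1 (0.541), ATF3 (0.596) and IER3 (0.605), of which NR4A1 alone passed within hashtags (0.592). Among p53 and apoptosis genes 0 of 11 passed, with CDKN1A at 0.929. In the ER stress and ATF4 list PHGDH, a serine synthesis gene, was higher (1.62; 1.17 within depth classes) and ATF3 lower, among 15 measured.

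Natriuretic peptide genes were lower in the high cells, with 2 of the 3 measured past the threshold, and so were several genes known to respond to stretch. NPPA, which encodes atrial natriuretic peptide, stood at 199.8 CPM in high and 730.4 CPM in low cells, a ratio of 0.274 (0.266 to 0.282). Inside the 13 hashtags it ran from 40.7 through 153.9 to 1060 CPM in high cells and from 127.9 through 685.2 to 1742 CPM in low cells. It was lower in 13 of 13, though the ranges overlap across hashtags. NPPB, the gene of B-type natriuretic peptide, had a ratio of 0.503 but was lower in only 8 of 13 hashtags. ANKRD1, a sarcomere-linked stress gene and a target of YAP, the coactivator that responds to stretch and stiffness, stood at 496.5 against 1387 CPM, a ratio of 0.358 (0.351 to 0.365), and was lower in 13 of 13 hashtags. Other YAP targets were lower as well: CCN2 at 117.8 against 328.8 CPM (ratio 0.358; lower in 11 of 13), CCN1 at 92.1 against 199.2 CPM (0.463; 12 of 13) and THBS1 at 33.5 against 94.97 CPM (0.353; 13 of 13). BMP2, a signalling ligand, stood at 27.0 against 100.4 CPM (0.269, lower in 12 of 13). The interval lay below 1 in 13 hashtags for NPPA, 11 for ANKRD1, 10 for CCN2 and CCN1, and 9 for THBS1 and BMP2. For NPPB it lay below 1 in 8 and above 1 in 4, and for CCN2 it lay above 1 in 2.

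More targets of YAP with its partner TEAD, and of the actin-controlled factor SRF, were picked after these values were seen, all but ACTA1, LMOD1 and SRF, so they are given as values and not counted. Of the YAP targets, TGFB2, a growth factor gene, had a ratio of 0.331 (0.622 within hashtag and depth), GADD45B 0.572 (0.675) and AMOTL2 0.638 (0.778). PTPN14 stood at 0.632 (0.798). AXL (1.02), ARHGEF17 (0.898), TEAD1 (0.788), AJUBA (0.757) and LATS2 (0.671) did not pass. Below the level for a call, FJX1 had a ratio of 0.413, AMOTL1 0.611, CRIM1 0.826, NUAK2 0.862, F3 0.891, DOCK5 1.16 and WWC1 1.47. Of the SRF and actin genes, ACTA1, skeletal actin, had a ratio of 0.467 (0.508 within hashtag and depth), LMOD1, a leiomodin, 0.441 (0.586), TAGLN, transgelin, 0.536 (0.551) and CALD1, caldesmon, 0.539 (0.652). SRF itself (0.549), XIRP1 (0.563), NEXN (0.584) and CNN1 (0.656) passed in the whole pool but not within hashtag and depth. The cytoplasmic actins ACTB (0.760) and ACTG1 (0.788) did not pass. Nor did MYL9 (0.941), MYH9 (0.924), ACTA2 (0.877), ZYX (0.870), CNN2 (0.848), FLNA (0.804), TPM4 (0.723) and VCL (0.719). ACTG2, too low for a call at 1.09 against 0.378 CPM (35 and 7 UMIs), had a ratio of 2.87. ACTA1 was lower in 9 of 13 hashtags and TAGLN in 10 of 13. DGKI, a diacylglycerol kinase gene, was also among the most lowered genes, at 25.7 against 55.2 CPM (ratio 0.466; 0.672 within hashtag and depth).

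Along the 10 groups by metallothionein level, NPPA stood at 730.4, 735.6, 462.9, 417.1, 508.9, 436.9, 412.7, 308.4, 246.3 and 199.8 CPM. ANKRD1 stood at 1386 CPM in the first group, 1508 in the second, 1094 in the third, 1087 in the fifth, 615.9 in the ninth and 496.5 in the tenth. Both genes were lower from the eighth group on than in any group before it, but part of the difference lies between the second and the third group, where the median depth goes from 10010 to 17530 UMIs per cell. The part of depth in that step was not tested. ACTA1 was not evenly graded, at 138.9 CPM in the first group, 168.4 in the second, 99.1 in the fourth, 135.9 in the fifth and 64.8 in the tenth.

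**Figure D4:**
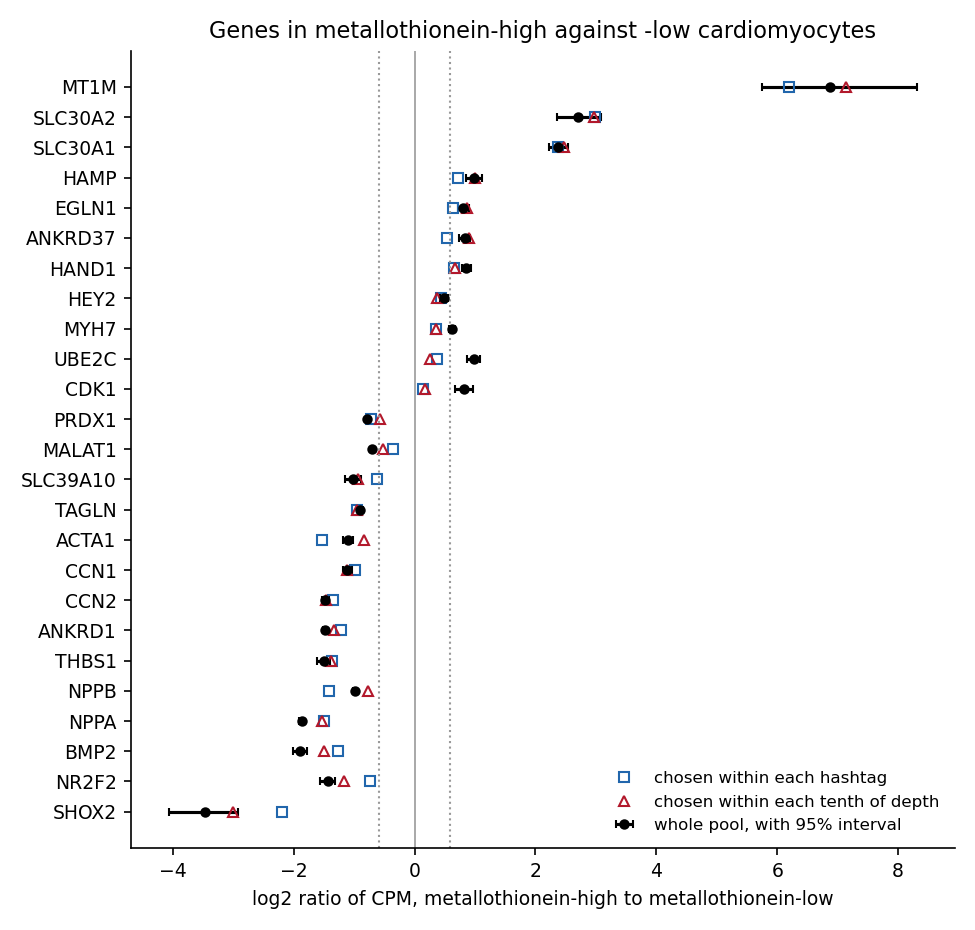
Ratio of CPM in metallothionein-high to metallothionein-low cardiomyocytes on a log2 scale (horizontal axis) for 25 genes, with cells chosen over the whole pool (black, bars are 95% intervals for counting error), within each hashtag (blue squares) or within each of 10 depth classes (red triangles); dotted lines mark a ratio of 1.5 in either direction. MT1M, SLC30A2 and SLC30A1 lie far right and NPPA, BMP2 and SHOX2 far left in each choice, while UBE2C and CDK1 move inside the lines when hashtag or depth is held.

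Among chamber genes, 1 of 4 measured atrial genes and 2 of 4 pacemaker genes were lower and 0 higher, and of 7 ventricular genes 1 was higher and 1 lower. NR2F2, the atrial transcription factor gene, stood at 28.2 against 76.4 CPM (ratio 0.369, 0.339 to 0.401). It was lower in 9 of 13 hashtags, and its ratio was 0.659 within hashtag and depth. SHOX2, a pacemaker factor gene, had 31 UMIs in high and 198 in low cells (ratio 0.0900, 0.0595 to 0.132; 0.318 within hashtag and depth), and CACNA1D, a calcium channel gene of pacemaker cells, had a ratio of 0.487 (0.815). The ventricular factor genes HEY2 (189.7 against 134.9 CPM, ratio 1.41) and IRX4 (1.37) did not reach the threshold. IRX1, also in the ventricular list, was lower (0.417; 0.747 within hashtag and depth). MYH7, slow myosin, stood at 449.8 against 293.0 CPM (1.54; 1.20 within hashtag and depth) and MYL2, ventricular myosin light chain, at 25.2 against 15.4 CPM (1.63; 1.27). MYH6, the myosin of early and atrial cells, had a ratio of 0.749, and MYL3, a myosin light chain, 1.27. HAND1, a factor of the left ventricle lineage, was higher at 172.1 against 95.2 CPM (ratio 1.81, 1.71 to 1.91). Its ratio was 1.45 within hashtag and depth. It was higher in 13 of 13 hashtags, with the interval above 1 in 9. FGF12, a gene of the FGF family whose product acts on sodium channels, stood at 53.3 against 28.6 CPM (ratio 1.86), but at 1.08 within depth classes. Of 14 measured cardiac transcription factors HAND1 was higher and SRF and MEF2C (0.656) lower, and of 14 sarcomere genes MYH7 and MYL2 were higher and ACTA1 and MYOM2 (0.419) lower. Of 12 measured calcium handling genes 0 were higher and 3 lower: CACNA1D, SLC8A1 (0.621) and TRDN (0.665). The last 2 did not pass within hashtags (0.768 and 0.764). Ion channel genes had 0 of 7 past the threshold, fatty acid genes 0 of 13, and extracellular matrix genes 1 of 13, COL5A2 (0.639). Cells with a UMI of NR2F2 or SHOX2 among 3000 UMIs drawn at random per cell were then removed. Cells with such UMIs only outside the 3000 stayed in, and NR2F2 still had a ratio of 0.649 and SHOX2 0.438. In this setting 92 genes (1.09%) were higher and 194 (2.3%) lower, SLC30A1 had a ratio of 5.36, ANKRD1 0.407 and NPPA 0.331.

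Cell cycle genes were higher in the whole pool, and fewer passed once depth was held. Of 19 measured G2M genes 11 were higher in high cells (median ratio 1.56), among them PLK1 (2.12), UBE2C (99.4 against 50.4 CPM, 1.97) and AURKB (1.85). Chosen within hashtags, 2 passed, and within the 10 depth classes 0 passed, although ratios stayed above 1 there for AURKB (1.29) and PLK1 (1.27). PTTG1, the gene of securin, stood at 266.7 against 154.6 CPM (ratio 1.73; 1.499 within depth classes), and BIRC5, the gene of survivin, had a ratio of 1.76 (1.36). MKI67, a proliferation marker, had a ratio of 1.41 (1.03). With each cell thinned to 3000 UMIs before the choice, 0 passed again, where 124 (1.44%) of all genes were higher and 291 (3.38%) lower. Against all other cardiomyocytes 0 passed as well, where 19 (0.227%) of all genes were higher and 57 (0.682%) lower. The 16 measured S phase genes had 0 past the threshold (median 1.11). CDK1 changed side, from a ratio of 1.77 to 0.909 within hashtag and depth. The histone gene HIST1H4C, highest in S phase, had a ratio of 2.42 in the pool and 1.38 within depth classes. UBE2C was higher in 10 and PTTG1 in 11 of 13 hashtags. Without cells that had 3 or more G2M UMIs of the 3000, SLC30A1 had a ratio of 5.59 and NPPA 0.264, and 64 genes (0.761%) were higher and 267 (3.17%) lower. There the ratios of UBE2C (2.23), AURKB (2.34), BIRC5 (2.44) and PTTG1 (2.19) were above those of the whole pool. Those of PLK1 (1.49), CDK1 (1.51), MKI67 (1.27) and HIST1H4C (2.08) were below. Except for PTTG1 and HIST1H4C, these genes are in the G2M list that removed the cells, so their ratios there depend on the filter itself.

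Signs of RNA quality moved too. MALAT1, a nuclear RNA, stood at 14070 CPM in high and 23030 CPM in low cells (ratio 0.611, and 0.771 within hashtag and depth). The 13 mitochondrially encoded genes had a median ratio of 0.732 with 2 lower, MT-ATP8 (0.630) and MT-ND6 (0.631), and 0 of 30 ribosomal protein genes passed (median 1.15). Of 29 nuclear genes of oxidative phosphorylation 0 passed (median 1.10).

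The share of metallothionein-high cells differed widely between hashtags. Of the cardiomyocytes given to hashtag 9, 23.7% (19.5 to 28.3) were high, followed by hashtag 10 (18.7%), 8 (17.6%), 3 (15.3%), 6 (13.4%) and 2 (10.1%). The lowest were hashtag 14 at 1.47% (0.636 to 2.87), hashtag 15 at 1.58% and hashtag 7 at 2.22%, with a median of 7.43% over the 13. The intervals of neighbouring hashtags overlapped and those of the highest 6 lay above those of the lowest 4. The median cell varied less than the tail: the median metallothionein level per cell ran from 86.2 to 259.3 CPM over hashtags, and the level at the 90th percentile from 317.5 to 11980 CPM. Hashtags 14 and 15 also had the shallowest cardiomyocytes, with medians of 8338 and 8670 UMIs. Chosen within depth classes, the shares ran from 2.04% in hashtag 15 to 24.5% in hashtag 9. SLC30A1 over all cardiomyocytes of a hashtag ran from 19.6 CPM in hashtag 15 to 62.5 CPM in hashtag 9. What the hashtags mark is not given in the labels, so differences between cultures, handling and depth cannot be told apart.

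**Figure D5:**
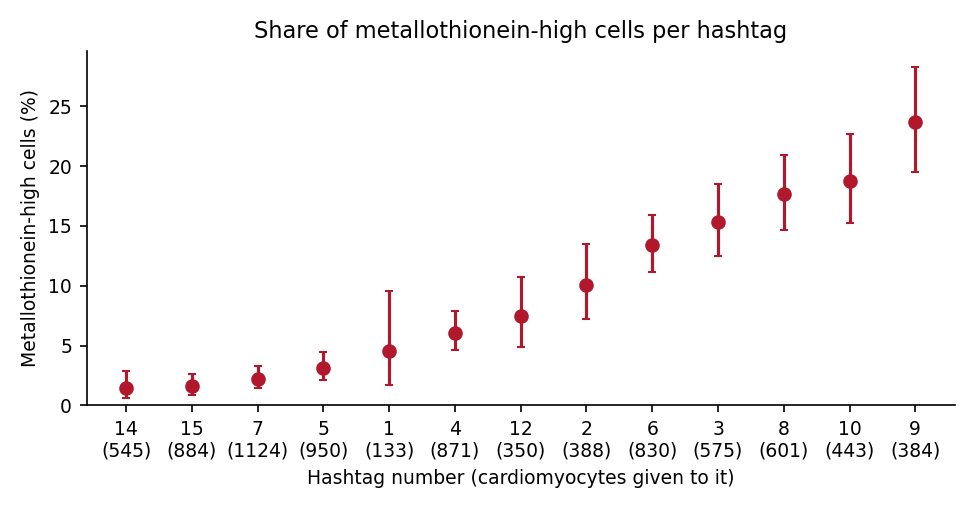
Percent of cardiomyocytes that were metallothionein-high (vertical axis) for each of 13 hashtags, ordered by share, with the number of cardiomyocytes given to it in brackets; bars are exact 95% intervals for counting error. Shares run from 1.47% in hashtag 14 to 23.7% in hashtag 9.

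Across the 13 hashtags, the summed metallothionein level of cardiomyocytes and that of SLC30A1 had a Pearson correlation of 0.893 on log2 CPM. Among 2746 genes at 50 CPM or more, the 10 most like the metallothioneins were PGRMC2 (0.839), CKB (0.777), MPC1 (0.774), FAM207A, YBX3, YBX1, POLE4, PRDM16-DT, SQSTM1 and GRPEL1 (0.727). The points share 1 library, differ in depth and cell number, and were ranked over many genes, so this is a description. SQSTM1, which ran from 71.9 to 123.7 CPM over hashtags, had a ratio of only 1.07 between high and low cells.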

How the data were processed

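The files hold 1 pool of cells in 2 libraries (RNA and hashtags) as raw counts of UMIs, made by the authors with Cell Ranger 4.0.0, per the file headers, on hg38, per the submitters' processing notes; for the aligner settings and annotation release, the sources used here give nothing. The deposited counts were not normalized. The cells, gene lists and rules were chosen with earlier results of these data known. Cells of the rule were ranked by CPM of the 5 genes, ties at 0 in seeded random order. UMIs were summed per group without these genes; the TMM alternative used edgeR 4.0.16. Intervals are at 95% (scipy 1.17.1): exact conditional binomial for ratios, Clopper-Pearson for shares. With 1 pool there is no test. The calculation was tested on simulated data.

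Genes were named by rule: the 4 most changed called genes of a list, the 10 most changed protein-coding genes in each direction with 50 CPM or above, and SLC30A1, MTF1, NPPA and others in any case. The YAP targets TGFB2, GADD45B, AMOTL2, PTPN14, AXL, ARHGEF17, TEAD1, AJUBA, LATS2, FJX1 and WWC1 were picked after their values were seen, as were AMOTL1, CRIM1, NUAK2, F3 and DOCK5. So were the SRF and actin genes TAGLN, CALD1, XIRP1, NEXN, CNN1, ACTB, ACTG1, MYL9, MYH9, ACTA2, ZYX, CNN2, FLNA, TPM4, VCL and ACTG2. The same holds for hepatic and epithelial genes, IRX1, IRX4, SLC2A1, MALAT1 and the values given for genes within 1.5. MT1L, MT1JP, MT1DP, MT1CP and GPX1 were not analysed here. Scrublet (scanpy 1.11.5) marked 1533 of 21623 barcodes (7.09%, against an expected 19.2%); they were kept in the main comparison and removed in an alternative. A cell was given to a hashtag with at least 70% of at least 20 hashtag UMIs. Free RNA was not removed. Depth ran from 3000 to 115854 UMIs per cardiomyocyte, 264210098 in all. Promoters come from RefSeq GRCh38.p14, which matched 2 of the 5 rule genes. Alternatives changed depth handling, thresholds, reference cells, scaling, doublets and single hashtags.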

Additional observations from a re-analysis of the deposited data

How the results depend on the processing

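The ratios of 62 named genes were recomputed over 34 settings. Of the 50 that were past 1.5 in either direction, 1 changed side: CDK1, at 0.909 when cells were chosen within each hashtag and each of 3 depth classes. Of the 12 others, 5 crossed 1 in some setting: BNIP3, CDKN1A, FTH1, MT3 and VEGFA. The 85 higher and 235 lower genes became 54 and 116 within hashtags, 46 and 124 within depth classes, and 49 and 73 with both. Against all other cardiomyocytes they were 19 and 57. The higher count was 132 with TMM scaling, which moved the median log2 ratio from -0.04 to 0.04. The lower count was 402 with the top and bottom 5% and 142 with MT2A alone choosing. Without a filter on low counts they were 1597 and 3753, at 50 CPM 21 and 82, at a lower fold threshold 380 and 1035, and at 2-fold 12 and 43. The fold thresholds kept the 8479 measured genes, but the filter settings changed the number measured, so their counts are not shares of 8479. Leaving out each hashtag in turn gave 77 to 100 higher and 230 to 285 lower genes.

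The readout lists were chosen with earlier results of these data known, so their shares beside those of all genes are a description. Of the 344 measured genes of the readout lists, 21 (6.1%) were higher and 22 (6.4%) lower, beside 1.0% and 2.77% of all genes. These counts were 8 and 12 within hashtags, 9 and 10 within depth classes, 4 and 4 with both, 6 and 6 against all other cardiomyocytes, 32 and 36 without a filter, 10 and 13 at 50 CPM, 41 and 59 at the lower fold threshold, and 3 and 5 at 2-fold. The higher count was 11 after thinning and 13 without cells with 3 or more G2M UMIs, and the lower count 14 with MT2A alone and 13 with TMM. Leaving out each hashtag gave 19 to 27 and 18 to 22. The number of readout genes measured changes with the filter and the choice of cells, so these counts cannot be read as shares of 344. The causes were not tested. No paired analysis was possible because the labels number no replicates; high and low cells were instead chosen inside each hashtag, and those values have no test.

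Hashtag shares kept hashtag 9 highest in each setting run (21.7% to 24.8%), while the lowest was hashtag 1, 14 or 15. The ratio of SLC30A1 lay at 4.93 to 5.32 with each hashtag left out.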

Other observations

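Some genes outside the lists, named after their values were seen, also separated the groups. BAMBI, a decoy receptor of BMP and TGF-beta signalling, stood at 142.5 CPM in high and 271.8 CPM in low cells (ratio 0.524) and was lower in 13 of 13 hashtags. GADD45G, a stress and growth arrest gene, had a ratio of 0.515 and was lower in 10 of 13. STC2, which encodes the secreted protein stanniocalcin 2, stood at 62.4 against 37.5 CPM (ratio 1.67) and was higher in 11 of 13. CDKN1C, the gene of the cell cycle inhibitor p57, did not pass in the pool (196.9 against 134.5 CPM, ratio 1.46) and was higher in 12 of 13. The interval lay below 1 in 9 hashtags for BAMBI and 8 for GADD45G, and above 1 in 5 for STC2 and 9 for CDKN1C. For GADD45G it lay above 1 in 1 hashtag.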
